A study of Mus musculus with 2 samples.

Results

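The genes described here are the clustered replication histone genes of the mouse, which encode the linker histone H1 and the core histones H2A, H2B, H3 and H4. Members were the protein-coding genes whose GENCODE M21 symbol starts with Hist1h, Hist2h, Hist3h or Hist4h. Of 67 such genes, 64 were found by gene identifier in both gene tables, among 69691 entries in all. They were 6 H1, 18 H2A, 15 H2B, 12 H3 and 13 H4 genes. Of the 3 others, all H2B genes, Hist1h2bh and Hist1h2bm were not analysed here, and Hist2h2bb is described below through its transcript. Total RNA had been sequenced from common myeloid progenitors, multipotent cells of the bone marrow from which the granulocyte, monocyte, megakaryocyte and erythroid lines descend. They were primary cells of adult C57BL/6J males, 5 to 6 weeks old, with no treatment stated in the labels. There were 2 libraries of this 1 group, biological replicates 1 and 2, each a ScriptSeq library of 100 ng of rRNA-depleted RNA. Both carry 1 donor label, so the spread between them is that of these 2 samples and may be technical in part. With 1 group there was no comparison of conditions, and values are means ± SD over the 2 libraries unless each library is given. Levels are in TPM, which scales each library to the same sum and divides the reads of a gene by the effective length of its transcript model. CPM scales the read counts to a common library total without that length correction and is named where it is used.

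A dividing cell has to wrap each newly copied stretch of DNA in new nucleosomes. The clustered histone genes supply the proteins for this during S phase and most are switched off outside it. As a rule these genes have no introns and their mRNAs end in a conserved stem-loop in place of a poly(A) tail. The stem-loop is bound by SLBP, the stem-loop binding protein, and is cut free with the help of the U7 small nuclear RNA. Libraries made from total RNA depleted of ribosomal RNA do not select for a poly(A) tail, so such mRNAs can be read in them. Histones of another kind, the replacement variants, come from single genes whose mRNAs are mostly polyadenylated.

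The stem-loop is shown first because it is the sequence that sets this family apart. It was searched for by its histone 3′ end consensus in the M21 transcripts, on the transcript strand, after the stop codon. Of 50 members whose M21 model has at least 30 bases there, 42 held it, each with all 6 base pairs of the stem, starting 21 to 58 bases after the stop codon (median 31.5). Of 29 members with at least 100 such bases, 24 held it within the first 100. The same window held it in 2 of 37741 protein-coding transcripts of other genes, or 0.0053%. A model without a match may end before that point, and 12 members have no annotated bases after the stop codon. Hist1h4a, Hist1h2bc, Hist1h2bq, Hist1h2br and Hist2h2be held no match although their models have 154 to 2192 bases there. Why these hold no match was not tested. The highest member by TPM for each of the 6 different 16-base cores is printed below on its transcript strand, with the arms of the stem in capitals and the 4-base loop between them in lower case.
Hist1h4d, chr13:23581945-23581970, plus strand, GRCm38: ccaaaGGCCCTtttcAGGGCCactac
Hist2h2aa1, chr3:96246027-96246052, plus strand, GRCm38: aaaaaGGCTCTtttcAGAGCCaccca
Hist1h2bb, chr13:23747198-23747223, plus strand, GRCm38: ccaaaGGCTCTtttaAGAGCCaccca
Hist2h2ac, chr3:96220413-96220438, minus strand, GRCm38: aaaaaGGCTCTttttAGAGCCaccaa
Hist1h4b, chr13:23757361-23757386, plus strand, GRCm38: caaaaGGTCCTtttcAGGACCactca
Hist1h4i, chr13:22040961-22040986, minus strand, GRCm38: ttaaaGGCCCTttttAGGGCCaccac
The H4 genes had cores of their own. The core of Hist2h2aa1 was shared by 24 members of the H1, H2A, H2B and H3 types and by no H4 gene. The core of Hist1h4d was found in 7 members, all of them H4, and those of Hist1h4b and Hist1h4i in 2 H4 genes each. The core of Hist1h2bb was found in 6 members of the H1, H2B and H3 types, and that of Hist2h2ac in this gene alone. Levels varied widely within a core: the H4 genes with the Hist1h4d core ran from Hist4h4 at 7.14 ± 0.643 TPM to Hist1h4d at 1710 ± 106 TPM.

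Promoters were read from the RefSeq promoter table (GRCm38.p6), which spans 250 bases before to 50 bases after each start and matched 59 members. The upstream 250 bases of the highest member of each type are printed as examples of the elements next to the start site. They do not stand for the other members of their type. Capitals mark the letters TATAAA and CCAAT and the octamer ATTTGCAT, a CCAAT on the minus strand being printed as its complement. Each was searched on both strands; a base could count toward more than 1 of them.
Hist1h1a, chr13:23763418-23763667, plus strand: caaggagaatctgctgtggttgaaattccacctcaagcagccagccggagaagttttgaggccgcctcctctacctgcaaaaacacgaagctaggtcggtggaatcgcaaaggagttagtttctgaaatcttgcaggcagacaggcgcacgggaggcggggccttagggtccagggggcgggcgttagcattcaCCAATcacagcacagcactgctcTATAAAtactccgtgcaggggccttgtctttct
Hist2h2aa1, chr3:96245247-96245496, plus strand: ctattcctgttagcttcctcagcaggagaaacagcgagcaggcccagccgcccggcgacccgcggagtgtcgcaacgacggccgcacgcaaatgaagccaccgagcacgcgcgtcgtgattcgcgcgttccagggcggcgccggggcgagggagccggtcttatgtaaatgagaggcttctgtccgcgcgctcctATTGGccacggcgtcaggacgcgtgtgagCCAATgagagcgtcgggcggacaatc
Hist1h2bb, chr13:23746484-23746733, plus strand: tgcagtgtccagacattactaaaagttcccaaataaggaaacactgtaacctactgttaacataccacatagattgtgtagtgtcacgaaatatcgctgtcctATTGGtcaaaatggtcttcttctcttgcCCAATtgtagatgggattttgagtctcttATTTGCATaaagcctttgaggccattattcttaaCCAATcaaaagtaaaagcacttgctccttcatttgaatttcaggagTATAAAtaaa
Hist1h3b, chr13:23752095-23752344, plus strand: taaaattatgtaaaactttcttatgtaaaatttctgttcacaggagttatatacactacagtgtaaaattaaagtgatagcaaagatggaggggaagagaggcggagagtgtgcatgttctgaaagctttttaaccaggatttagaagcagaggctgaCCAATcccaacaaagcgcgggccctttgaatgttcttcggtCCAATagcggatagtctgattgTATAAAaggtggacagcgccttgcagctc
Hist1h4d, chr13:23581318-23581567, plus strand: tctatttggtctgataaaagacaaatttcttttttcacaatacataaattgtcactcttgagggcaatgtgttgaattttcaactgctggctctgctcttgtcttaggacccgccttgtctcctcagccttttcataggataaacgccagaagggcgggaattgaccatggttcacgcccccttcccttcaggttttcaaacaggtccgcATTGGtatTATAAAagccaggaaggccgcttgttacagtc
Over the 300-base windows, TATAAA was found in 35 of 59 members (59.3%) and in 13.6% of all 32851 promoters of the table. A match counted on either strand and at any distance from the start, so it need not be an element of that gene. The only match in the Hist1h2ae window was on the strand opposite to that gene. In Hist2h2aa1 TATAAA lies after the start site and so outside the printed stretch. CCAAT was found in 50 of 59 members (84.7%) against 37.4% of all promoters. Every matched H1, H2A, H2B and H3 promoter held it, but only 3 of 12 H4 promoters did, that of Hist1h4d among them. The octamer, the site of the POU factor Oct-1, was found in 11 of 59 members (18.6%) against 1.74% of all promoters, in 7 of 18 H2A and 4 of 13 H2B promoters and in none of the H1, H3 and H4 promoters. These letters are a description of the windows and show no binding. Of the 11 promoters with the octamer, 8 belong to H2A and H2B genes that start back to back, and in 3 such pairs both windows held it, so these are not separate sites. The H2B genes with it were Hist1h2bb, Hist1h2bg, Hist1h2bk and Hist1h2ba. The first 3 were the highest measured H2B genes, while Hist1h2ba had 0 counts in both libraries. The median level was 357 TPM in replicate 1 and 452 TPM in replicate 2 for these 4 H2B genes, and 29.3 and 29.6 TPM for the 9 H2B genes without it. By CPM these medians were closer, at 253 and 288 against 75.9 and 72.2. For H2A the order by TPM was the other way. Medians were 149 and 211 TPM for the 7 genes with the octamer and 205 and 228 TPM for the 11 without it. By CPM the H2A order was that of H2B, at 181 and 198 with the octamer against 115 and 102 without it.

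As a family the clustered histone genes were among the most abundant protein-coding mRNAs of these progenitors. They made up 1.57% ± 0.166 of all TPM and 7.54% ± 0.433 of the TPM of nuclear protein-coding genes, of which they are 0.298%. At 1 TPM or more in both libraries stood 59 of 64 members, or 92.2%, where 42.5% of nuclear protein-coding genes did. At 100 TPM or more in both stood 37 members, or 57.8%, where 1.25% of those genes did. Of the 100 nuclear protein-coding genes of highest TPM, 15 were members. On the CPM scale, without the correction for their short models, only 2 of the highest 100 were members, and the family held 1.15% ± 0.0144 of all counts. The 5 members below 1 TPM in a library were Hist1h1t, Hist1h2aa, Hist1h2ba, Hist1h2bq and Hist2h3c1.

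The types were far from equal. H4 held 38.9% ± 0.277 of the members' TPM, H2A 32.0% ± 0.692, H2B 14.7% ± 0.277, H1 8.44% ± 0.203 and H3 5.90% ± 0.0649. In summed level this was 6110 ± 604 TPM for H4, 5030 ± 641 for H2A, 2312 ± 202 for H2B, 1324 ± 109 for H1 and 928 ± 108 for H3. H4 and H3 sit together in the nucleosome in equal numbers, and so do H2A and H2B. The summed TPM of H4 was 6.59 ± 0.119 times that of H3, and that of H2A was 2.17 ± 0.0877 times that of H2B. The H2B sum lacks 3 genes, and with Hist2h2bb added the second ratio was 1.33 ± 0.104. The size of the first ratio depends on the scale: it was 3.35 ± 0.00194 in CPM and 4.41 ± 0.00256 when CPM was divided by coding length in place of model length. The order of H4 and H2A also depends on it, because H2A held 33.4% ± 0.904 and H4 26.9% ± 0.0384 of the members' CPM. H3 was the lowest type on each of the 3 scales, in both libraries.

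**Figure D1:**
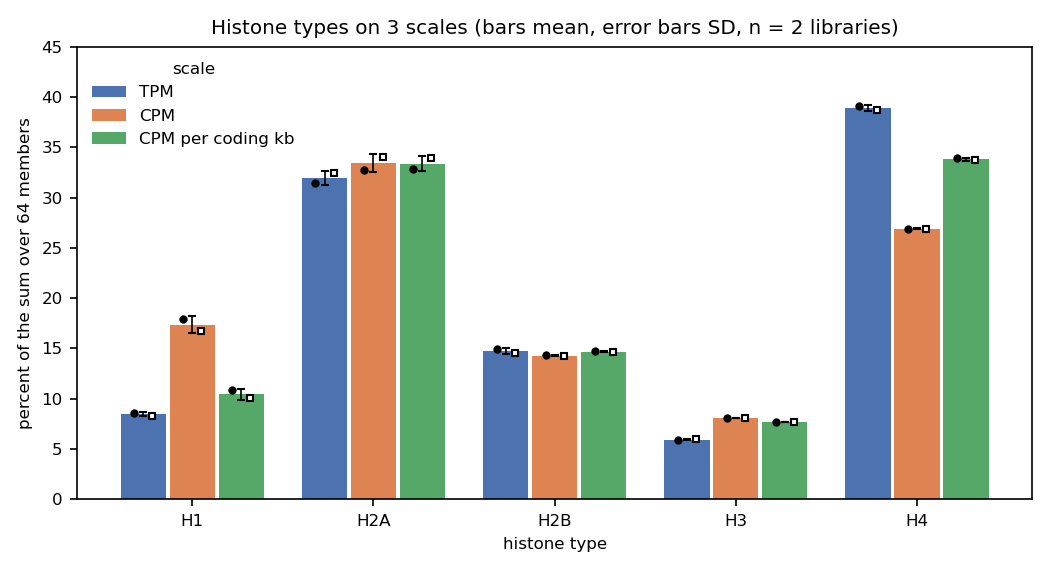
Share of each histone type in the sum over 64 members (y axis, percent) on 3 scales, TPM, CPM and CPM per coding kb; bars are means, error bars SD and points the 2 libraries. H4 stands at 38.9% by TPM and 26.9% by CPM, and H3 is the lowest type on all 3 scales.

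The 13 H4 genes have 12 different coding sequences but translate to 1 identical protein, so their summed level is that of a single product. Hist1h4d was the highest member of the whole family, at 1785 TPM in replicate 1 and 1635 TPM in replicate 2. Hist1h4k followed with 860 and 1219 TPM and Hist1h4m with 664 and 1110 TPM, both higher in replicate 2. Hist1h4n stood at 669 and 656 TPM and Hist1h4f at 584 and 665 TPM. These are 5 of the 10 highest members by mean TPM. The 3 highest copies held 59.5% ± 1.64 of the H4 TPM. By expected counts the 3 highest held 51.7%. The model of Hist1h4k has 312 bases, its coding sequence alone. On the CPM scale Hist1h4k stood at 242 and 325, below Hist1h4m at 339 and 517 and Hist1h4n at 392 and 348. The place of Hist1h4k next to Hist1h4d therefore depends on the model length. The H4 genes outside the Hist1 cluster were the lowest by mean TPM, Hist2h4 at 20.98 and 26.6 TPM and Hist4h4 at 6.68 and 7.59 TPM. Hist1h4i, next above them by the mean with 29.9 and 23.5 TPM, was below Hist2h4 in replicate 2. Both genes outside Hist1 have long deposited models, of 1630 and 2879 bases, and on the CPM scale Hist2h4 stood at 80.4 and 88.1 and Hist4h4 at 48.2 and 47.1, against 41.5 and 28.6 for Hist1h4i. The rank of these 3 genes at the bottom therefore depends on the model length.

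H2A mRNA came mainly from a Hist2 pair and from the Hist1 copies. Hist2h2aa1 stood at 1201 TPM in replicate 1 and 1120 TPM in replicate 2, and Hist2h2aa2, whose coding sequence is identical, at 299 and 827 TPM. Together this pair held 34.1% ± 1.94 of the H2A TPM. The 9 Hist1 genes that share 1 identical H2A protein held 42.9% ± 2.40. The highest of these were Hist1h2ab with 552 and 570 TPM and Hist1h2ap with 358 and 469 TPM. Hist2h2ac, whose protein is not identical to any other member's, stood at 533 and 586 TPM. Hist2h2ab, the lowest H2A gene with counts by mean TPM, stood at 17.1 and 21.7 TPM, and in replicate 1 Hist1h2ah was below it at 3.54 TPM. Hist3h2a, with a model of 2146 bases, stood at 44.8 and 50.8 TPM but at 234 and 229 CPM. Hist1h2aa, whose known site of expression is the testis, had 0 counts in both libraries. A count of 0 allows up to 3 counts, or 0.107 CPM in replicate 1 and 0.0357 CPM in replicate 2, for counting error only.

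Among the measured H2B genes Hist1h2bb was the highest, with 638 TPM in replicate 1 and 623 TPM in replicate 2. Hist1h2bg followed with 398 and 498 TPM, Hist1h2bk with 316 and 406 TPM and Hist1h2bn with 307 and 362 TPM. The 3 highest copies held 62.2% ± 0.0625 of the H2B TPM. The H2B genes outside Hist1 were low, with 3.72 and 2.83 TPM for Hist3h2ba and 1.38 and 1.84 TPM for Hist2h2be. Hist1h2bq, the lowest with counts by mean TPM, stood at 1.62 and 0.69 TPM, which in replicate 1 is above Hist2h2be. By CPM Hist3h2ba was lower, at 4.02 and 2.70 against 8.35 and 3.04 for Hist1h2bq. Hist1h2ba, the testis H2B gene, had 0 counts in both libraries. The H2B sum lacks the genes Hist1h2bh and Hist1h2bm, which were not analysed here. It also lacks the gene Hist2h2bb. Its M21 transcript is in the transcript tables under another gene identifier, which is not in M21. This transcript of 381 bases stood at 1445 TPM in replicate 1 and 1410 TPM in replicate 2, above every H2B member. With that gene entry added, the H2B sum went from 2312 ± 202 to 3783 ± 187 TPM, the H2B share of the members' TPM from 14.7% to 22.1%, and the ratio of H2A to H2B went from 2.17 to 1.33 ± 0.104. This addition was made after its value was seen, and the sum still lacks Hist1h2bh and Hist1h2bm.

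By the TPM share of the 3 highest copies, H3 was spread more evenly over its copies than H4 and H2B. H2A was close to H3, at 48.1% ± 2.66. By expected counts H3 and H4 were alike, at 51.8% and 51.7%. The 12 genes translate to 2 proteins, known as H3.1 and H3.2. The 8 genes of the larger group (Hist1h3b, Hist1h3c, Hist1h3d, Hist1h3e, Hist1h3f, Hist2h3b, Hist2h3c1 and Hist2h3c2), which includes all Hist2 H3 genes and encodes H3.2, held 70.5% ± 0.363 of the H3 TPM and 80.3% ± 0.238 of the H3 CPM. The 4 others (Hist1h3a, Hist1h3g, Hist1h3h and Hist1h3i), which encode H3.1, held 29.5% ± 0.363 of the H3 TPM. Hist1h3b stood at 146 TPM in replicate 1 and 149 TPM in replicate 2, Hist1h3a at 136 and 132 TPM, Hist1h3e at 119 and 148 TPM and Hist1h3c at 113 and 147 TPM. By TPM Hist1h3b was above Hist1h3a in both libraries, while Hist1h3a, Hist1h3e and Hist1h3c did not differ beyond the spread between the libraries. On the CPM scale Hist1h3e, with a model of 836 bases, stood at 200 and 218, above Hist1h3b at 160 and 144. Hist1h3a then stood at 117 and 102 and Hist1h3c at 83.8 and 97.5. The order of these copies therefore depends on the model length. The 3 highest copies held 45.6% ± 2.12 of the H3 TPM. Of the Hist2 copies, Hist2h3b stood at 61.8 and 78.0 TPM and Hist2h3c2 at 20.0 and 28.7 TPM, and Hist2h3c1 was the lowest H3 gene with 3.86 and 0.50 TPM. By cluster, Hist1 held 89.6% ± 0.425 and Hist2 10.4% ± 0.425 of the H3 TPM.

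The linker histone H1 binds the DNA that enters and leaves the nucleosome, and each of the 6 genes encodes a different subtype. By TPM Hist1h1a was the highest, with 405 in replicate 1 and 573 in replicate 2, or 36.7% ± 5.95 of the H1 TPM. Hist1h1b stood at 264 and 249 TPM (19.5% ± 2.39), Hist1h1d at 222 and 225 TPM (16.9% ± 1.25), Hist1h1e at 189 and 187 TPM (14.2% ± 1.29) and Hist1h1c at 166 and 167 TPM (12.6% ± 0.974). By CPM the order changed. Hist1h1c, whose model of 1560 bases is the longest of the H1 genes, then held 28.3% ± 1.76 and Hist1h1a 26.5% ± 5.06 of the H1 reads, which does not separate these genes. Hist1h1t, the testis H1, stood at 0.87 and 0.16 TPM, from 34 and 16 counts. The H1 sum was 0.369 ± 0.00967 times the mean of the 4 core types by TPM, 0.467 ± 0.0266 times by CPM per coding kb and 0.840 ± 0.0495 times by CPM.

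**Figure D2:**
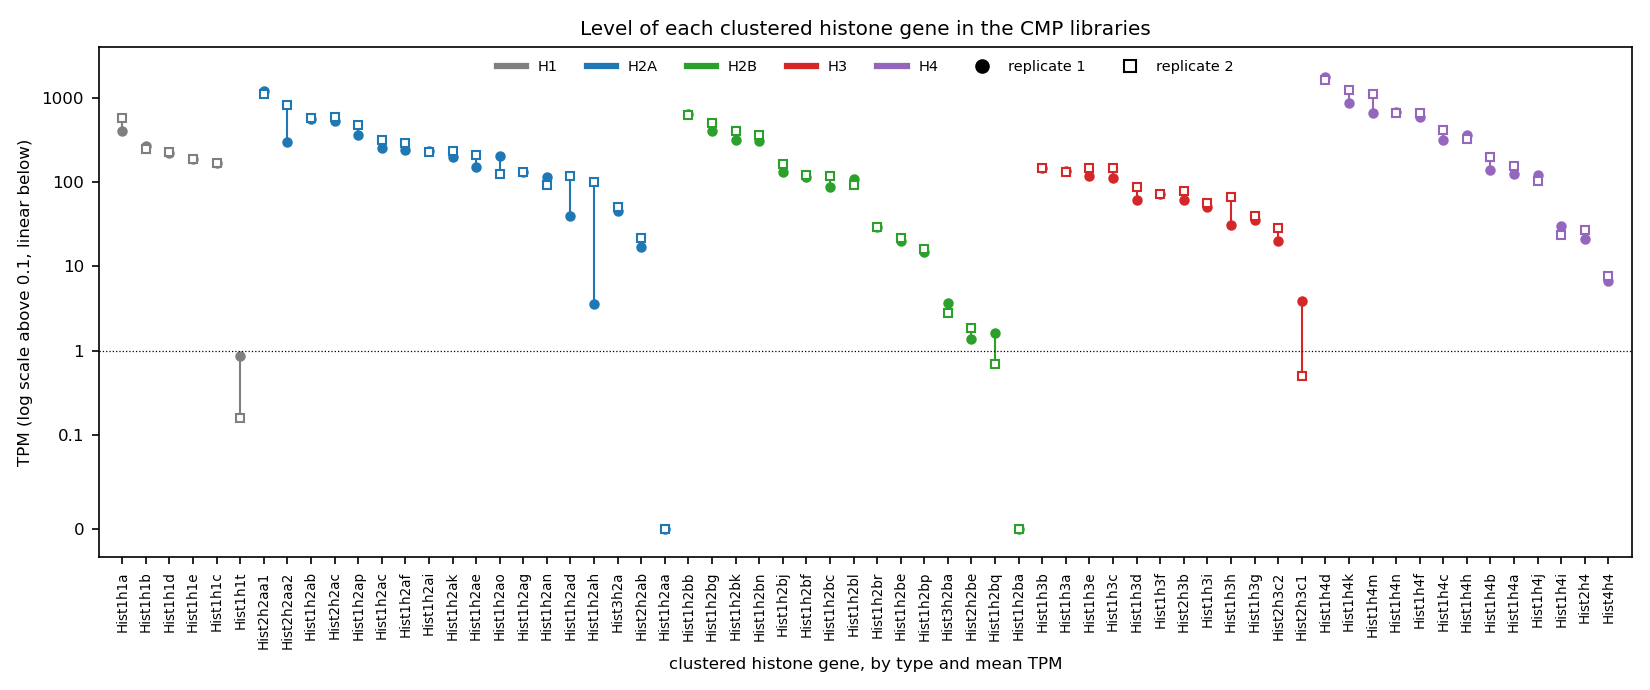
TPM of each of the 64 members (y axis, logarithmic above 0.1 and linear below) in replicate 1 (filled circles) and replicate 2 (open squares), by type and mean TPM, with a dotted line at 1 TPM. Every type falls over 1 or more orders of magnitude from its highest to its lowest copy, and Hist1h2aa and Hist1h2ba sit at 0.

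By place in the genome, the large Hist1 cluster held most of the signal. Its 52 members lie on chromosome 13 (chr13:21715763-23934851, GRCm38) and held 84.2% ± 0.754 of the members' TPM. The 9 Hist2 members (chr3:96219865-96269141) held 15.4% ± 0.766, the 2 Hist3 members on chromosome 11 0.326% ± 0.0111 and the single Hist4 member on chromosome 6 0.0455% ± 0.00072. By CPM the shares were 78.5%, 19.1%, 2.04% and 0.415%. With the Hist2h2bb entry added, the Hist2 share of TPM was 22.7%. Within Hist1, stretches of over 100 kb without a member divide the genes into 4 blocks. The block of 28 genes that includes all H1 genes except Hist1h1b held 59.4% ± 1.88 of the Hist1 TPM with 53.8% of its genes. The block of 17 genes held 35.2% ± 1.26 with 32.7% of its genes, and the block of 5 genes held 5.41% ± 0.620 with 9.62%. The last block holds Hist1h2ba and Hist1h2aa alone and had no counts. High and low copies were neighbours in the first 3 blocks.

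**Figure D3:**
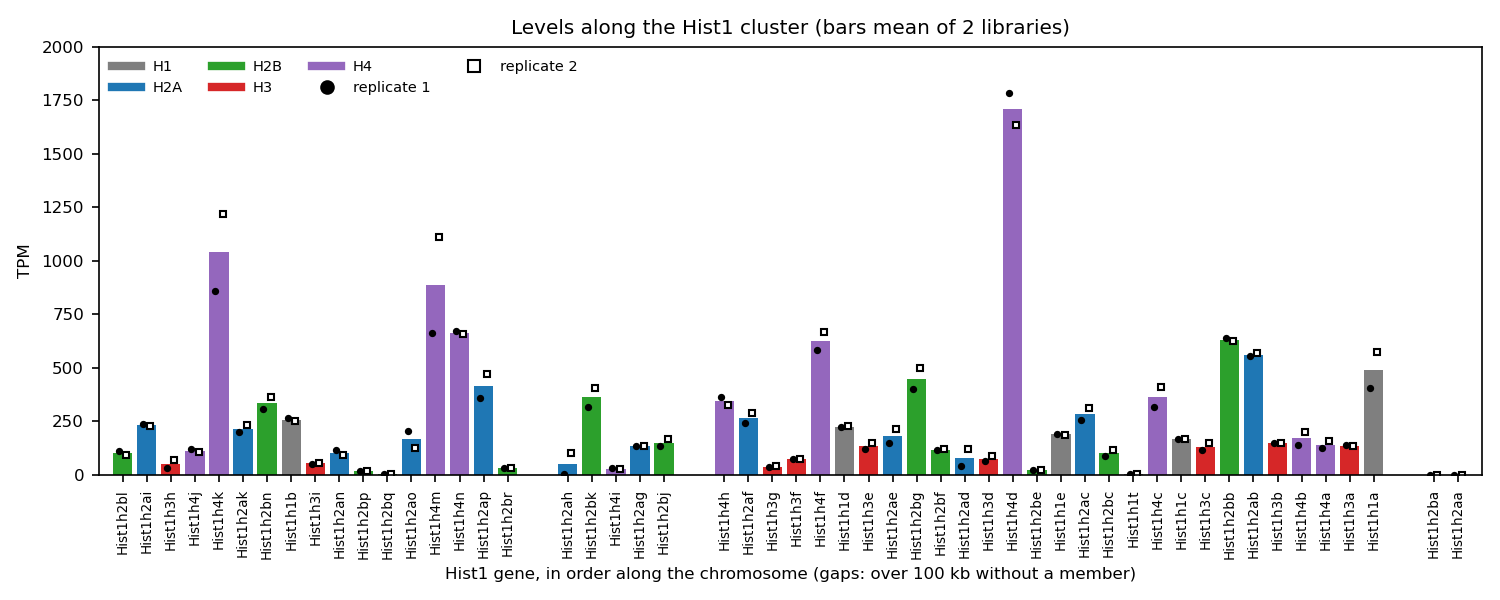
TPM of the 52 Hist1 members in their order along the chromosome (bars, mean of 2 libraries; circles, replicate 1; squares, replicate 2), coloured by type, with a gap where over 100 kb hold no member. The tallest bar is Hist1h4d at 1710 TPM, and the 2 genes of the last block are at 0.

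Many H2A and H2B genes start back to back and share the stretch between them as a promoter. There were 12 such pairs, with starts 176 to 306 bases apart, and 11 of them had counts. The H2A partner was higher by TPM in both libraries in 6 pairs and the H2B partner in 4. In 1 pair, Hist1h2ag with Hist1h2bj, the order differed between the libraries. In the pair with the highest summed TPM, Hist1h2ae stood at 149 and 211 TPM and its partner Hist1h2bg at 398 and 498 TPM. In the next, Hist2h2ac stood at 533 and 586 TPM and Hist2h2be at 1.38 and 1.84 TPM. The model of Hist2h2be is 2620 bases long, but the partners were also apart in raw counts, with 12408 and 36293 for Hist2h2ac and 253 and 867 for Hist2h2be. In the third, Hist1h2ak stood at 197 and 231 TPM and Hist1h2bn at 307 and 362 TPM. A shared start region thus did not always come with equal mRNA levels of the partners. Some were near equal in 1 library. Hist1h2ag and Hist1h2bj stood at 132 and 131 TPM in replicate 1, but at 133 and 166 TPM in replicate 2. Hist1h2ad and Hist1h2bf stood at 119 and 120 TPM in replicate 2, but at 39.4 and 114 TPM in replicate 1. Levels of single copies are uncertain, as described below.

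**Figure D4:**
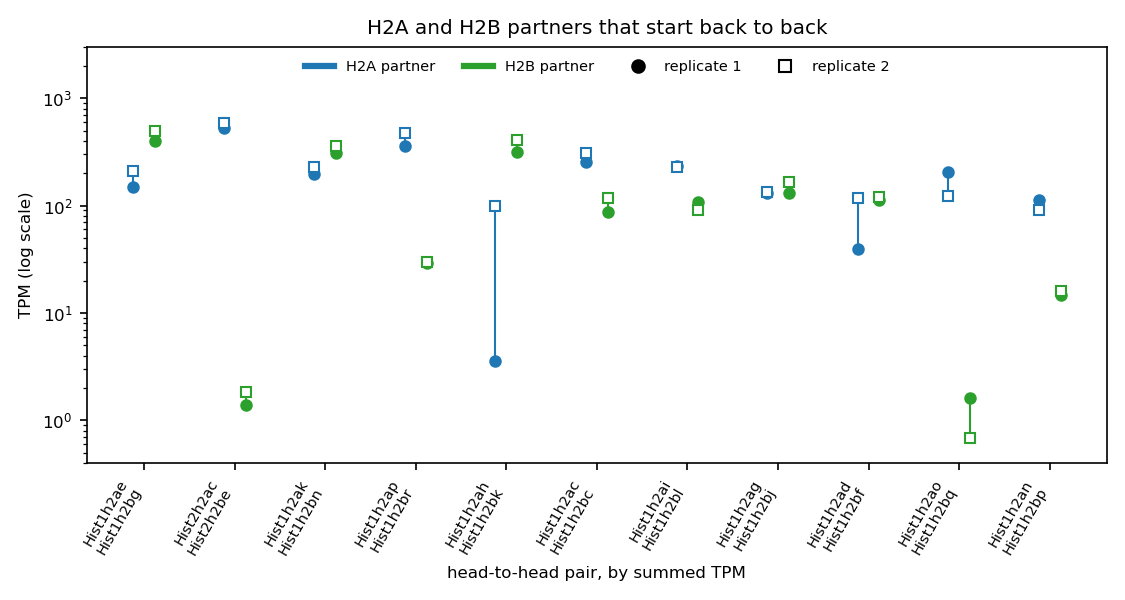
TPM (logarithmic y axis) of the H2A partner (blue) and the H2B partner (green) in the 11 back-to-back pairs with counts, in replicate 1 (circles) and replicate 2 (squares). Hist2h2ac and Hist2h2be are among the pairs farthest apart, at over 500 TPM against under 2 TPM.

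Between the libraries the family as a whole hardly moved, while a few single copies did. Ratios are log2 CPM of replicate 2 minus log2 CPM of replicate 1, computed on TMM-scaled library sizes. A count of 0.5 on average was added to each count, in proportion to library size. Over the 62 members with a mean count of 10 or more the median ratio was 0.01, against 0.03 over all genes tested, and the ratios of the summed counts of the 5 types lay between -0.08 for H1 and 0.08 for H2A. Of these 62, 6 (9.68%) were at least 2-fold apart, where 20.9% of all such genes were. The 3 that were higher in replicate 2 compare with a background of 13.4% and the 3 that were lower with 7.5%. Most members have high counts. At a mean count of 1000 or more, 3 of 55 members (5.45%) were at least 2-fold apart, where 0.414% of nuclear protein-coding genes were. At a mean count of 10 or more, 14.8% of nuclear protein-coding genes were. Those 3 were the H2A genes Hist1h2ah, Hist1h2ad and Hist2h2aa2, all higher in replicate 2. Hist1h2ah went from 51.8 counts to 3938 counts, or from 3.54 to 99.1 TPM, a log2 ratio of 4.65. Hist1h2ad went from 39.4 to 119 TPM (1.43) and Hist2h2aa2 from 299 to 827 TPM (1.30). The lower ones were Hist2h3c1 (-3.15), Hist1h1t (-2.61) and Hist1h2bq (-1.46), with at most 472 counts in either library. The next lower one was Hist1h2ao at -0.89, short of 2-fold.

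Near-identical copies are the rule in this family. Of the core histone members with a mean count of 10 or more, all 5 that were at least 2-fold apart had a coding sequence at least 98% identical to that of another member, and so had 33 of the 51 others. The deposited tables give a posterior SD for each expected count, which is above 0 where reads could be assigned in more than 1 way. It was above 0 in both libraries for 57 of 64 members, where it was for 10.1% of nuclear protein-coding genes with a mean count of 10 or more. The 7 with a posterior SD of 0 were Hist1h1a, Hist1h1b, Hist1h1t, Hist1h2aa, Hist2h2be, Hist2h4 and Hist4h4. For Hist1h2ah the posterior SD was 43.4% of the count in replicate 1 and 4.41% in replicate 2, and its coding sequence is 99.0% identical to that of Hist1h2ai. The 95% interval of its TPM ran from 1.06 to 7.02 in replicate 1 and from 89.9 to 108 in replicate 2. These intervals cover the estimate within a library and not the spread between samples. Hist2h3c1 had intervals of 2.501 to 4.46 TPM and of nearly 0 to 0.762 TPM, and Hist1h1t of 0.592 to 1.17 TPM and of 0.0905 to 0.244 TPM. These were the 3 widest intervals relative to the level. In 5 pairs the coding sequences are identical, and the counts were split unequally between the libraries. Of the reads of Hist2h2aa1 and Hist2h2aa2, Hist2h2aa1 was given 82.6% in replicate 1 and 61.5% in replicate 2, while the ratio of the summed pair was 0.15. For Hist2h3c1 and Hist2h3c2 the share given to Hist2h3c1 was 27.7% and 3.33%, with a ratio of the sum of -0.11. The sums of Hist1h2ao with Hist1h2ap, Hist1h2bq with Hist1h2br and Hist1h4m with Hist1h4n had ratios of -0.08, -0.28 and 0.24. With identical copies summed, 3 of 57 coding sequences were at least 2-fold apart, those of Hist1h2ah, Hist1h2ad and Hist1h1t. How the reads of near-identical copies were divided in these libraries was not tested, so levels of single copies are uncertain.

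**Figure D5:**
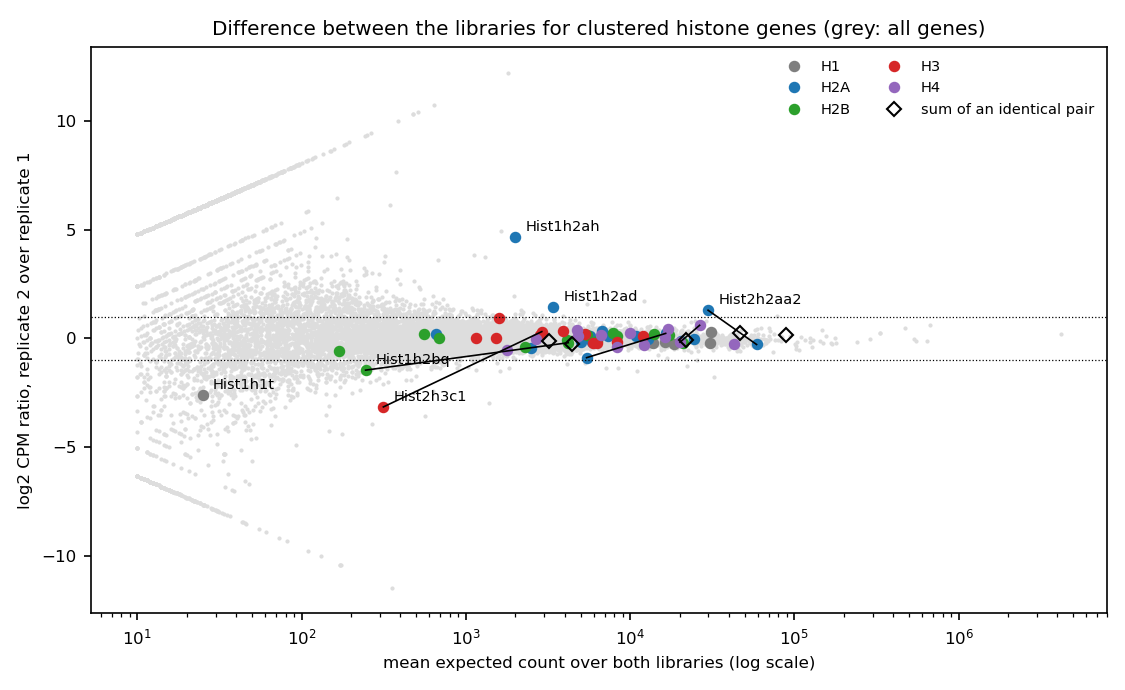
Log2 CPM ratio of replicate 2 over replicate 1 (y axis) against the mean expected count (logarithmic x axis) for members by type and for all genes with a mean count of 10 or more (grey). Lines join copies with identical coding sequence and open diamonds mark their sum; dotted lines mark a 2-fold difference. The sums lie between -0.28 and 0.24, while Hist2h3c1 and Hist2h2aa2 lie beyond the dotted lines.

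Levels per copy moved with the length of the deposited model. Across the 62 members with a mean count of 10 or more, Spearman's rho between model length and TPM was -0.463 in replicate 1 and -0.500 in replicate 2, and between model length and CPM -0.058 and -0.109. Members are not independent replicates, and TPM has length in its denominator. The 17 members whose model ends within 100 bases after the stem-loop had a median of 352 ± 75.5 TPM. The 9 whose model runs more than 100 bases past it, where a mature replication histone mRNA would have ended, had 29.3 ± 0.863 TPM. Their median CPM were 241 ± 24.2 and 84.2 ± 5.41. Another 12 models end at the stop codon and so hold no stem-loop, and 20 models differ in length between the deposited table and M21 and were not placed. Only 4 members, all H2B genes, have more than 1 deposited transcript model. Hist1h2be had 94.2% of its TPM in replicate 1 and 93.9% in replicate 2 on a model of 2408 bases, and Hist1h2bq had 100% and 89.9% on a model of 2121 bases. Hist1h2bp had 29.4% and 41.4% on the longer of its models, of 621 bases. Hist1h2br had 99.9% of its TPM in replicate 1 on the shortest of its models, which is still 1256 bases long.

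Genes that work with this family, and the histone variants outside it, had lower median levels than its members by TPM, but not all of them by CPM. The median was 111 ± 7.75 CPM over the 64 members, 60.5 ± 3.67 over the replacement variants, 82.0 ± 3.61 over the genes for transcription and 3′ processing and 155 ± 5.68 over the genes for deposition. The replacement variants, which are made outside S phase as well, had a median of 25.0 ± 3.03 TPM over 11 genes, 9 of them at 1 TPM or more in both libraries. Over those with at least 10 counts in each library, which leaves out H1fx, the median was 44.7 TPM. H3f3a and H3f3b, which encode the replacement H3.3, stood at 447 ± 39.3 and 186 ± 8.78 TPM. Their sum was 40.7% ± 3.98 of the TPM of H3.3 and clustered H3 together, and 63.8% ± 2.75 of the CPM. Of the H2A variants, H2afy (macroH2A1) stood at 378 ± 7.57 TPM and, with 1256 and 1067 CPM, above every member on that scale, H2afz (H2A.Z) at 194 ± 56.7 TPM and H2afx, the H2A phosphorylated at DNA breaks, at 64.4 ± 6.63 TPM. The 6 H2A variants made up 11.8% ± 0.532 of the H2A TPM and 30.5% ± 2.54 of the H2A CPM. The linker variant H1f0 stood at 10.9 ± 1.48 TPM, and H1f0 with H1fx made up 0.842% ± 0.0785 of the H1 TPM. Cenpa, the centromeric H3, stood at 22.8 ± 0.106 TPM.

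Genes for the transcription and 3′ end processing of clustered histone mRNA had a median of 8.98 ± 0.746 TPM, and 15 of 18 were at 1 TPM or more in both libraries. Slbp, which binds the stem-loop printed above, stood at 65.2 ± 5.26 TPM and was the highest of them by TPM. Npat, the coactivator of histone transcription at the histone locus body, stood at 7.24 ± 0.629 TPM and Casp8ap2 (FLASH), its partner there, at 14.7 ± 1.34 TPM. Cpsf2 and Cpsf3, subunits of the cleavage complex, stood at 19.4 ± 3.20 and 17.2 ± 1.70 TPM. By CPM Cpsf2, at 237 and 257, and Casp8ap2, at 237 and 227, were above Slbp at 215 and 203. Lsm10 and Lsm11, proteins of the U7 particle, stood at 3.31 ± 0.283 and 0.78 ± 0.184 TPM. The entry of the U7 RNA itself, Rnu7, had 0 counts in both libraries. The labels give size ranges of 200 to 1000 for replicate 1 and 187 to 1606 for replicate 2. Whether this short RNA was kept by the size selection was not tested, so its 0 counts set no limit on its level. Genes for histone chaperones and deposition had a median of 29.7 ± 4.52 TPM, and all 18 were at 1 TPM or more in both libraries. Nap1l1, an H2A-H2B chaperone, stood at 169 ± 33.4 TPM, Nasp, a chaperone of H3-H4 and H1, at 104 ± 9.53 TPM and Ssrp1, a subunit of FACT, at 99.5 ± 13.0 TPM. Asf1b and Asf1a, which hand H3-H4 to the replication fork, stood at 5.82 ± 1.74 and 10.6 ± 1.82 TPM. The median of the 64 clustered genes was 134 TPM, against 0.34 TPM for nuclear protein-coding genes.

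The libraries held 28158803 and 84041054 expected counts, so replicate 2 was 2.98 times as deep. Markers of progenitors were present, with all 5 (Cd34, Kit, Myb, Mpo and Cd48) at 1 TPM or more in both libraries. Of 11 markers of other cells, Pax5, Cd3e, Cd8a, Ncr1, Cdh5 and Col1a1 had 0 counts in both libraries, and 2, Hbb-bs and Pecam1, reached 1 TPM in both. The summed level of all 11 was 12.0 TPM in replicate 1 and 15.3 TPM in replicate 2. All 5 genes of dividing cells were at 1 TPM or more in both, with Mki67 at 90.01 ± 10.7 TPM, Top2a at 137 ± 10.2 TPM and Pcna, the replication clamp, at 137 ± 9.28 TPM. In bulk RNA, more cells in S phase and more histone mRNA per cell cannot be told apart.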

How the data were processed

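Members and gene lists were chosen with earlier results of these data known. The authors deposited a gene and a transcript table per library, made on the mm10 assembly and the GENCODE M4 annotation, per the deposited readme files; aligner and quantifier are not given in the sources used here. The deposited expected counts are estimated reads that need not be whole, and were rounded for library scaling. TPM, FPKM and posterior mean TPM were used as deposited by the authors. The deposited percent of each transcript within its gene was not used, and the deposited posterior SD and interval bounds of the authors' tables were taken as they stand. CPM is the expected count scaled to the library total of Ensembl genes. Gene symbols, classes, coordinates and transcript sequences were those of GENCODE M21 (GRCm38, which mm10 also is), and promoters from RefSeq (GRCm38.p6).

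Library sizes were scaled by TMM in edgeR 4.0.16 (R 4.3.3), with DESeq2 1.42.0 size factors as an alternative. Genes with a mean expected count of 10 or more entered ratios. With 1 group no test between conditions and no p-value was possible. Named genes were all H1 genes, the 4 highest and 2 lowest copies of each core type, all Hist2, Hist3 and Hist4 members, the 3 largest ratios each way at a mean count of 50 or more, the testis genes, members with a longer model at 10% or more, the 3 highest back-to-back pairs, the 3 widest posterior intervals and the listed genes; other copies named beside a count were chosen after their values were seen. Python 3.11.15 (numpy 2.4.6, pandas 2.3.3, matplotlib 3.10.9) served for the rest. Ratios and shares were also computed on simulated gene counts. These did not cover how reads are divided between copies or the length of the models. The labels name no molecular identifiers, so limits for 0 counts cover counting error only.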

Additional observations from a re-analysis of the deposited data

Results flagged for a closer look

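Signal was also seen in entries outside the 64 members, above the 3 counts that a count of 0 allows. The entry that holds the Hist2h2bb transcript under another gene identifier had 22136 expected counts in replicate 1 and 62221 in replicate 2, or 1481 and 1460 TPM. Most of it, 18545 and 49574 counts, was on the Hist2h2bb transcript of 381 bases and the rest on a second transcript of 1511 bases. Hist3h2bb-ps, annotated as a processed pseudogene in the Hist3 cluster (chr11:58954048-58954512, GRCm38), had 283.73 and 1043.15 expected counts, or 14.8 and 20.3 TPM. That is above the level of Hist3h2ba, the measured protein-coding H2B gene of that cluster, in both libraries. Hist1h2al, a processed pseudogene on chromosome 13 outside the span of the Hist1 members, had 15.08 and 86.43 expected counts. How reads were divided between these entries and the members was not tested.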

How the results depend on the processing

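The results were recomputed in 191 alternatives, of which 150 stayed within the spread between the libraries or, for counts, within 1.5 times, and 41 moved beyond it. FPKM and posterior mean TPM moved no result by more than the spread, nor did leaving out either library, which keeps each value at that of the other library; with 2 libraries this cannot move a mean by more than 1 SD. Expected counts in place of TPM moved 21 results, because reads are then not divided by model length. The type shares became 17.4% for H1, 33.4% for H2A, 14.3% for H2B, 8.03% for H3 and 26.9% for H4. Those of the clusters became 78.5% for Hist1, 19.1% for Hist2, 2.04% for Hist3 and 0.415% for Hist4. The H1 shares became 26.5% for Hist1h1a, 28.3% for Hist1h1c, 15.1% for Hist1h1d and 12.8% for Hist1h1e. H3 became 88.4% Hist1 and 11.6% Hist2. The 3 highest copies then held 53.3% of H2A, 56.5% of H2B, 51.8% of H3 and 51.7% of H4. The family held 1.15% of the library, and the longer models held 58.3% of the counts of the 4 genes with several models, against the share by TPM of 40.0% ± 3.03. Counts per coding base, chosen after model lengths were seen, gave 10.4% for H1, 33.4% for H2A, 7.67% for H3 and 33.8% for H4. With the Hist2h2bb entry, also added after seeing the data, the type shares were 7.72% for H1, 29.2% for H2A, 22.1% for H2B, 5.40% for H3 and 35.6% for H4, and the cluster shares 76.98% for Hist1, 22.7% for Hist2, 0.298% for Hist3 and 0.0416% for Hist4. Over nuclear protein-coding genes alone the family held 7.54%, and the list medians rescaled to those genes were 121 TPM for the replacement variants, 43.1 TPM for transcription and 3′ processing and 142 TPM for deposition. Where only genes with 10 or more counts per library were kept, the medians were 44.7 TPM for the replacement variants and 9.76 TPM for transcription and 3′ processing. The count of 6 members at least 2-fold apart became 3 with identical copies summed, which leaves fewer entries, and was 5 or 6 in the other alternatives run. No paired analysis was possible because there is only 1 group. Depth limits genes with few counts most in replicate 1.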
